A study of Mus musculus with 3 samples.

Results

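Transcripts of 37 lysosomal genes were compared across the germ layers of E7.5 mouse embryos. The genes were a list of symbols for lysosomal proteins and comprised 9 proteases, 10 glycosidases, 5 sulfatases, 7 proteins of lipid handling and 6 membrane proteins. All 37 were found in the gene tables, which hold 17633 genes with a read in at least 1 library. The sulfatases, which share substrates with the glycosidases, were kept apart from them.

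The endoderm, mesoderm and epiblast of ICR embryos were separated by hand after the embryonic region had been cut off and treated with trypsin and pancreatin. ICR is an outbred mouse strain. The embryos carried no transgene or treatment in the labels, and the layers shared strain and stage. RNA from a large pool of embryos gave 1 RNA-seq library per germ layer, so the differences below have no replicate check. The epiblast sample held the neuroectoderm and the primitive streak, and the endoderm sample was not divided into visceral and definitive endoderm. In such bulk samples, fewer cells of a type and less RNA per cell cannot be told apart.

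The lysosome is the acidic organelle in which endocytosed and autophagic cargo is broken down. Its soluble hydrolases are made in the endoplasmic reticulum, tagged with mannose 6-phosphate in the Golgi and delivered by receptors to endosomes. Cathepsins and other proteases degrade proteins, glycosidases and sulfatases remove sugars and sulfates from glycans, and lipases and their activators handle lipids. Membrane proteins protect the limiting membrane and carry ions and products across it, and the vacuolar ATPase (V-ATPase) keeps the lumen acidic. The visceral endoderm of the early mouse embryo takes up maternal proteins by endocytosis and is known for large apical vacuoles and lysosomes. Transcription factors of the MiT/TFE family, among them TFEB, bind an E-box-like element near the start of many lysosomal genes.

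Reads counted on genes summed to between 40.8 M and 42.7 M per library. The fewest reads of any member in any library were 52, and the median member had reads over 97.5%, 93.8% and 93.9% of its length in endoderm, mesoderm and epiblast. The 8 visceral endoderm markers (*Afp*, *Ttr*, *Apoa1*, *Apob*, *Amn*, *Cubn*, *Rbp4* and *Hnf4a*) had 84.3 to 2376.4 RPKM in endoderm, 0.0336 to 1.48 in mesoderm and 0.0429 to 1.79 in epiblast. RPKM is the number of reads per kilobase of gene length and per M reads of the library, so that levels can be set beside each other between genes. Summed RPKM of the 4 definitive endoderm markers was 230.0, 76.7 and 5.45 in endoderm, mesoderm and epiblast, and *Cxcr4* among them was higher in mesoderm. The 5 mesoderm markers summed to 6.76, 384.8 and 81.4 RPKM and the 4 epiblast markers to 156.6, 195.8 and 1295.4 RPKM in the same order. Parietal endoderm markers (5 genes) summed to 212.0, 188.5 and 77.5 RPKM. Trophoblast and extra-embryonic ectoderm markers (8 genes, 3 not listed in any library) summed to 45.8, 28.5 and 39.7 RPKM. Among them *Plac1* (19.9, 6.25 and 0.569 RPKM) and *Esx1* (7.11, 0.0606 and 0.130 RPKM) were highest in endoderm, and *Cdx2* (18.4, 20.9 and 37.1 RPKM) in epiblast. Decidual markers (6 genes) summed to 0.900, 4.11 and 2.03 RPKM. The part of these cell types in the results below was not tested. Macrophages, which are rich in lysosomes, were at or near 0 by their markers, as *Aif1* and *Lyz2* had no reads in any library, *Ptprc* had 2 reads in epiblast and none elsewhere, and all 8 macrophage markers together had 33, 9 and 3 reads.

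The promoters of the members are shown first, because many of them carry the same short element. RefSeq start sites of GRCm38.p6 were matched for 32 of the 37 members, and the 250 bases before and 50 bases after each start were searched on both strands. The letters searched were TCACGTG, the core of the element that MiT/TFE factors are known to bind. They contain the E-box CACGTG. The longer element was found near 11 of the 32 members, a share of 34.4%. The share was 4.29% of all 27025 genes with such windows and 7.54% of the genes above 5 RPKM in any layer. CACGTG alone was found near 12 of the 32 members (37.5%), against 8.09% of all genes and 12.5% of the genes above 5 RPKM. The 11 members were *Ctsa*, *Ctsd*, *Lgmn*, *Gaa*, *Gla*, *Glb1*, *Naglu*, *Arsa*, *Sgsh*, *Lamp1* and *Mcoln1*, and *Ctsl* had CACGTG only. By class, it was found near 3 of 7 proteases, 4 of 10 glycosidases, 2 of 4 sulfatases, 0 of 5 lipid handling genes and 2 of 6 membrane genes. A match of letters is a description and not a bound site.

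*Lamp1* is shown because its promoter held the most matches, 4, all within 62 bases upstream of the start. The 250 bases lie at chr8:13158911-13159160 on the plus strand. *Gla* is shown because its pair of matches had the full palindrome TCACGTGA, as did that of *Ctsa*, although *Gla* did not differ between layers by the criteria below. Its 250 bases lie at chrX:134601006-134601255 on the minus strand. Capitals mark the matches, and both stretches end at the base before the annotated start.
*Lamp1*: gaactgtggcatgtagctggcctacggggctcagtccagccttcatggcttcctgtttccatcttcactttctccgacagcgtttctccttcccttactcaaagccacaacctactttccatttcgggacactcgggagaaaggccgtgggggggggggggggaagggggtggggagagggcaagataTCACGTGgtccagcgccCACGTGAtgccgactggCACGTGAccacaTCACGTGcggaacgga
*Gla*: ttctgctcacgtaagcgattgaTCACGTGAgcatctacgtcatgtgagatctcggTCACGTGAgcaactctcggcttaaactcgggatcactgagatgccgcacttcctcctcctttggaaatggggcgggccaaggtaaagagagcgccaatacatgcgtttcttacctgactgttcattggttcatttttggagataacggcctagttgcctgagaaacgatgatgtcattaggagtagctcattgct

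Shorter windows are given for 5 further members that span the range of differences between layers, from *Lgmn* with one of the largest to *Naglu* with one of the smallest. The matches began 50 bases upstream of the start in *Lgmn* (chr12:102439125-102439153, minus strand), 13 in *Ctsa* (chr2:164833749-164833778, plus strand) and 46 in *Mcoln1* (chr8:3500462-3500491, plus strand). They began 17 bases upstream in *Arsa* (chr15:89477424-89477452, minus strand) and 74 in *Naglu* (chr11:101070009-101070037, plus strand). Another match, not shown, began 4 bases downstream of the start in *Ctsa* and 72 bases upstream in *Mcoln1*.
*Lgmn*: tggaatgtctgTCACGTGgtccattttat
*Ctsa*: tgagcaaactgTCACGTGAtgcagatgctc
*Mcoln1*: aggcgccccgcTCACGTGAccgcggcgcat
*Arsa*: tcaactcagtgTCACGTGttgtctgctcc
*Naglu*: caaccttcaggTCACGTGgcccgaggtcg

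Lysosomal transcripts were most abundant in endoderm. The 37 members summed to 4502.9 RPKM in endoderm, 766.0 in mesoderm and 689.9 in the epiblast library, which is 5.88-fold and 6.53-fold higher in endoderm. As a share of reads, the members took 0.996% of the endoderm, 0.189% of the mesoderm and 0.169% of the epiblast library. Of the 37, 32 had their highest RPKM in endoderm, 3 in mesoderm (*Gusb*, *Scarb2* and *Laptm4a*) and 2 in epiblast (*Gla* and *Psap*). Under other scalings of the libraries endoderm was highest for 31 to 34 members, and *Gla*, *Laptm4a* and *Naglu*, whose endoderm values were close to those of another layer, were among those that changed place. In endoderm 31 members were above 5 RPKM, as were 25 in mesoderm and 23 in epiblast. *Lgmn* and *Ctsl* were among the 100 highest genes of the endoderm library, and 0 members were among the 100 highest of the other libraries.

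The order of the members also differed between layers. Endoderm was led by proteases, with *Lgmn* at 811.4 RPKM, *Ctsl* at 773.8, *Ctsh* at 519.9 and *Ctsz* at 385.0, and these 4 genes made up 55.3% of the members' summed RPKM. Mesoderm was led by *Lamp1* (122.7 RPKM), *Laptm4a* (75.6) and *Psap* (69.7), and epiblast by *Lamp1* (111.5), *Psap* (71.3) and *Laptm4a* (67.2). The plot of levels by class shows the red endoderm points of the proteases far to the right, while those of *Gusb*, *Psap* and *Scarb2* lie to the left of the other layers.

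**Figure D1:**
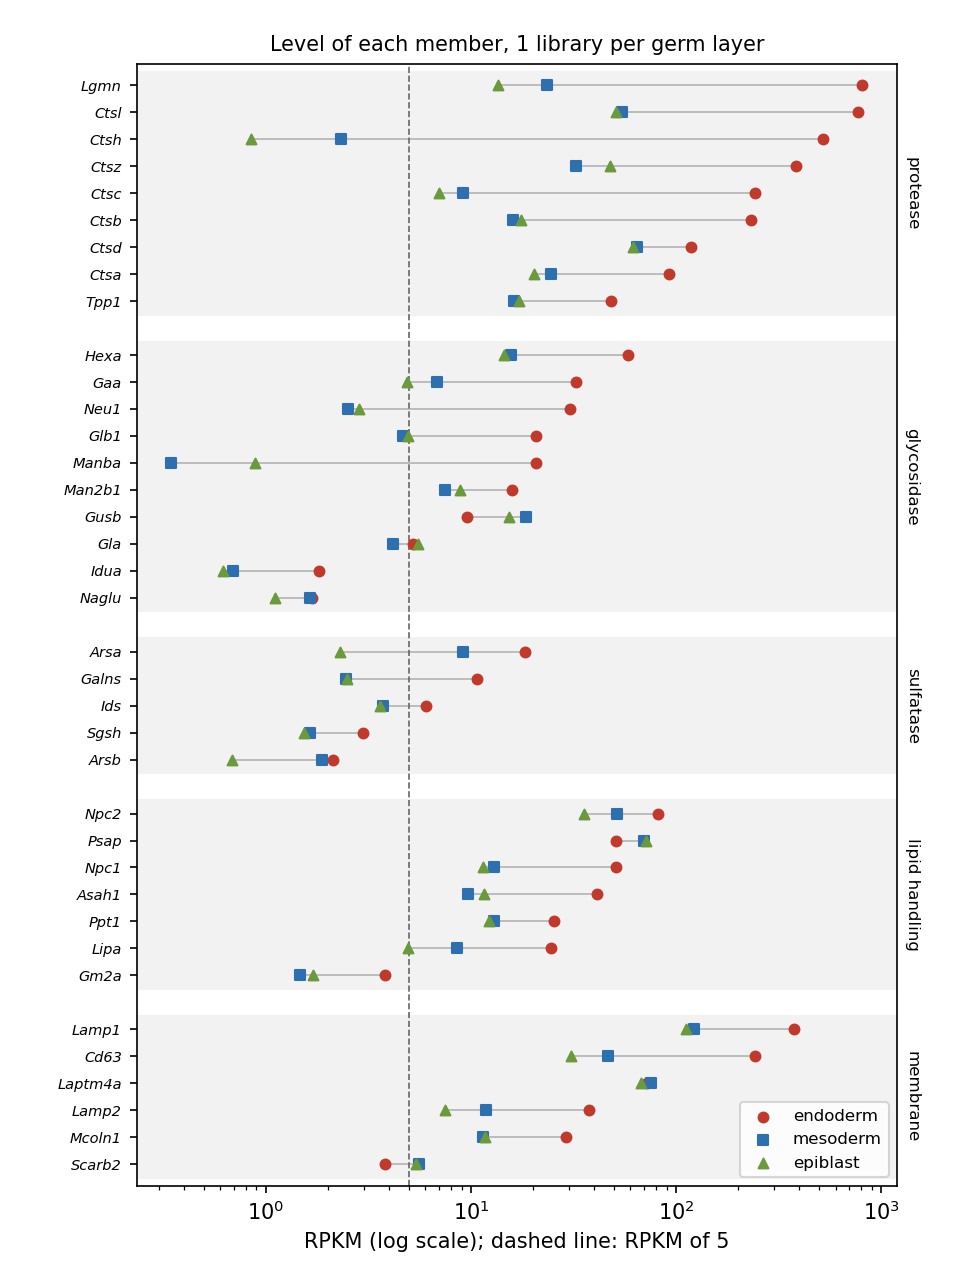
RPKM of each of the 37 members in the endoderm, mesoderm and epiblast libraries (log axis), grouped by class and ordered by the endoderm value; each symbol is 1 library and the dashed line marks 5 RPKM. Endoderm is highest for 32 members (31 to 34 under other scalings), and *Lgmn* (811.4 RPKM), *Ctsl* (773.8) and *Ctsh* (519.9) lie farthest to the right.

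The criteria of the study were used to call a gene different between a pair of libraries. These are Fold Change>2, RPKM>5 in either library, and FDR<0.001 by the exact test that Audic and Claverie devised for read counts. This test compares libraries and covers counting error only, as do the 95% intervals of the folds given below. Against mesoderm, 23 members were called higher in endoderm and 0 lower. Among all genes above 5 RPKM in either library, 14.4% were called higher in endoderm than in mesoderm and 8.56% higher in mesoderm. Against epiblast, 24 members were called higher in endoderm and 0 lower, where 15.7% of all such genes were called higher in endoderm and 8.94% higher in epiblast. The endoderm library was shared by these comparisons. The same 22 members were called higher than in both other layers, *Man2b1* was called against mesoderm only, and *Ppt1* and *Npc2* against epiblast only. The other 12 members were called in no pair.

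Of the 37 members, 32 passed the minimum of 5 RPKM in each comparison with endoderm. The minimum was passed through endoderm alone by 7 of them against mesoderm and by 9 against epiblast. Of the 25 members above 5 RPKM in mesoderm itself, 18 were called higher in endoderm, and of the 23 above 5 RPKM in epiblast, 16 were. The median fold over all 37 was 2.99 against mesoderm and 3.57 against epiblast, which is 1.58 and 1.84 on the log2 scale. The median log2 ratio over all genes above 5 RPKM was -0.11 and -0.08. Other scalings of the libraries moved that median of all genes by 0.11 upward or by up to -0.13 downward, and 22 of the 23 and 23 of the 24 calls held under each of them.

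By class, the gap between layers was widest for the proteases. They summed to 3223.2 RPKM in endoderm against 243.5 in mesoderm and 236.8 in epiblast, which is 13.2-fold and 13.6-fold. Glycosidases summed to 196.9, 62.7 and 59.6 RPKM (3.14-fold and 3.31-fold) and membrane proteins to 763.2, 273.9 and 234.0 RPKM (2.79-fold and 3.26-fold). Sulfatases summed to 40.2, 18.9 and 10.6 RPKM (2.13-fold and 3.79-fold). The lipid handling genes had the smallest ratio of sums, with 279.3, 167.1 and 149.0 RPKM (1.67-fold and 1.87-fold). By the median fold of single members the order differed, with 2.60 and 2.29 for lipid handling genes and 1.81 and 3.13 for sulfatases, against 14.2 and 13.3 for proteases. These sums have no replicates, and the ratio between classes was not tested. In the bar plot of summed RPKM, the endoderm bar of the proteases exceeds those of the other 4 classes together.

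**Figure D2:**
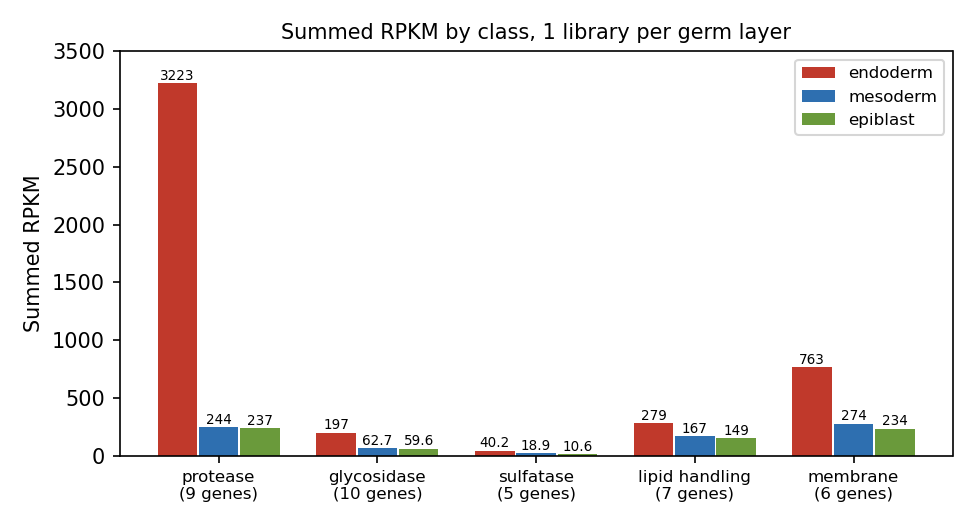
Summed RPKM of the members of each class (linear axis from 0) in the endoderm, mesoderm and epiblast libraries, 1 bar per library and no error bars because each layer has 1 library. The protease bar of endoderm stands at 3223.2 RPKM, and mesoderm and epiblast are close to each other in every class but the sulfatases (18.9 and 10.6 RPKM).

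Of the 9 proteases, 8 were called higher in endoderm against each other layer, and only *Ctsd* was not. The largest difference among all members was that of *Ctsh* (chr9:90054152-90076089, plus strand), which encodes cathepsin H, a cysteine protease with aminopeptidase activity. Endoderm had 519.9 RPKM of *Ctsh*, mesoderm 2.32 and epiblast 0.849, from 35236, 154 and 59 reads. The ratio was 224.4 against mesoderm (interval 191.5 to 264.6) and 612.3 against epiblast (474.6 to 804.5). The few reads in mesoderm and epiblast were spread over 81.9% and 74.5% of the gene length. In mesoderm, *Ctsh* stood at 0.446% of its endoderm RPKM and in epiblast at 0.163%. The visceral endoderm markers had 0.0375% to 0.292% of their endoderm level in mesoderm and 0.0150% to 0.242% in epiblast, and the part of carried-over endoderm RNA in these reads was not tested.

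*Lgmn* (chr12:102394084-102439813, minus strand) encodes legumain, the asparaginyl endopeptidase that cleaves cathepsin precursors. Endoderm had 811.4 RPKM of it, the highest of all members, while mesoderm had 23.4 and epiblast 13.6. It was 34.7-fold (33.1 to 36.4) and 59.6-fold (56.1 to 63.3) higher in endoderm. *Ctsc*, which encodes the dipeptidyl peptidase cathepsin C, had 242.0, 9.15 and 6.96 RPKM, with ratios of 26.4 (24.8 to 28.3) and 34.8 (32.3 to 37.5). The main cysteine endopeptidases were next in order. *Ctsb* (cathepsin B) had 232.6, 16.1 and 17.5 RPKM, or 14.4-fold (13.9 to 15.0) and 13.3-fold (12.8 to 13.7) higher in endoderm. *Ctsl* (cathepsin L, chr13:64359337-64370890, minus strand) had 773.8, 54.6 and 51.1 RPKM, with ratios of 14.2 (13.8 to 14.6) and 15.1 (14.7 to 15.6).

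The remaining proteases differed less. *Ctsz*, the carboxypeptidase cathepsin Z, had 385.0, 32.6 and 47.9 RPKM and was 11.8-fold and 8.03-fold higher in endoderm. *Ctsa*, the serine carboxypeptidase that also holds β-galactosidase and neuraminidase in a complex, had 92.0, 24.5 and 20.2 RPKM (3.76-fold and 4.55-fold). *Tpp1*, a tripeptidyl peptidase, had 48.4, 16.2 and 17.1 RPKM (2.99-fold and 2.83-fold). *Ctsd*, the main lysosomal aspartic protease, was high in all layers with 118.0, 64.7 and 61.5 RPKM. Its ratios of 1.82 (1.76 to 1.89) and 1.92 (1.86 to 1.99) were short of the fold criterion, although with the median of ratios, TMM or RPKM total scaling it was called higher in endoderm than in epiblast. It was the highest protease of mesoderm and of epiblast.

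Glycosidases ranged from some of the largest differences to the opposite direction. Of the 10, 6 were called higher in endoderm than in mesoderm and 5 higher than in epiblast. *Manba* (chr3:135485611-135571404, plus strand) encodes β-mannosidase, which cleaves the last mannose of N-glycan breakdown. Endoderm had 20.8 RPKM of it, mesoderm 0.345 and epiblast 0.889, from 3189, 52 and 140 reads, and was 60.1-fold (45.7 to 80.7) and 23.4-fold (19.7 to 27.9) higher in endoderm. *Neu1*, the lysosomal sialidase, had 30.5, 2.52 and 2.85 RPKM, with ratios of 12.1 (10.9 to 13.4) and 10.7 (9.74 to 11.8). *Gaa*, the acid α-glucosidase that degrades glycogen, had 32.4, 6.86 and 4.87 RPKM (4.73-fold and 6.66-fold). *Glb1*, the acid β-galactosidase, had 20.8, 4.68 and 4.96 RPKM (4.44-fold and 4.19-fold). *Hexa*, the α-subunit of β-hexosaminidase, had 58.4, 15.7 and 14.5 RPKM (3.71-fold and 4.03-fold).

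*Man2b1*, the lysosomal α-mannosidase, lay near the fold criterion with 15.9, 7.48 and 8.88 RPKM. Its ratio was 2.12 (1.99 to 2.26) against mesoderm and 1.79 (1.68 to 1.90) against epiblast. *Gusb* (chr5:129989011-130003049, minus strand), the β-glucuronidase often used as a reference gene, was the member with the lowest endoderm ratio. Endoderm had 9.52 RPKM, mesoderm 18.6 and epiblast 15.4. Its mesoderm level was 1.95-fold (1.80 to 2.11) and its epiblast level 1.62-fold (1.49 to 1.75) that of endoderm. Neither ratio met the fold criterion, but with libraries scaled to the same upper quartile *Gusb* was called higher in mesoderm than in endoderm. *Gla*, the α-galactosidase A, had 5.21, 4.16 and 5.54 RPKM, and its endoderm and epiblast values did not differ beyond counting error (ratio 0.941, interval 0.845 to 1.05). *Naglu* (1.68, 1.65 and 1.11 RPKM) and *Idua* (1.81, 0.693 and 0.615 RPKM), which act on heparan sulfate, were under 5 RPKM in all layers. The ratio of *Idua* was 2.60 (2.05 to 3.33) and 2.94 (2.30 to 3.78), which met the fold criterion but not the RPKM minimum.

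Sulfatases were low, with 18.4 RPKM as the highest value in any layer. *Arsa* (chr15:89472476-89477425, minus strand), the sulfatase of sulfatide, was the only member called in every pair of layers. Endoderm had 18.4 RPKM of it, mesoderm 9.16 and epiblast 2.29. Its ratio of endoderm to epiblast was 8.02, that of mesoderm to epiblast 3.99 (3.54 to 4.51) and that of endoderm to mesoderm 2.01 (1.88 to 2.15). The last call ended when libraries were scaled to the same upper quartile. *Galns*, which desulfates keratan sulfate, had 10.7, 2.45 and 2.50 RPKM and was 4.37-fold and 4.27-fold higher in endoderm.

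The other sulfatases were not called. *Ids*, the iduronate sulfatase, had 6.05, 3.74 and 3.60 RPKM (ratios 1.62 and 1.68). *Sgsh*, the sulfamidase of heparan sulfate, had 2.98, 1.65 and 1.54 RPKM (1.81 and 1.93). *Arsb*, which acts on dermatan sulfate, had 2.13, 1.88 and 0.681 RPKM, so that endoderm and mesoderm were both higher than epiblast, as for *Arsa*. Its mesoderm level was 2.76-fold (2.22 to 3.45) that of epiblast, below the RPKM minimum.

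In the plot of ratios, the members of lipid handling lie within a narrower range than the proteases. Of the 7, 3 were called higher in endoderm than in mesoderm and 5 higher than in epiblast. *Npc1*, the membrane protein that exports cholesterol from lysosomes, had 51.1, 12.9 and 11.5 RPKM and was 3.95-fold (3.79 to 4.12) and 4.45-fold (4.26 to 4.65) higher in endoderm. Its soluble partner *Npc2* had 81.8, 51.8 and 35.7 RPKM, with ratios of 1.58 (1.53 to 1.63) and 2.29 (2.22 to 2.37). The members of this pair therefore differed in the size of their ratio by more than counting error. *Asah1*, the acid ceramidase, had 41.3, 9.72 and 11.6 RPKM (4.25-fold and 3.57-fold). *Lipa*, the acid lipase of cholesteryl esters, had 24.5, 8.57 and 4.94 RPKM (2.86-fold and 4.97-fold).

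*Ppt1*, which removes palmitate from proteins, had 25.5, 12.9 and 12.3 RPKM, and its ratios of 1.98 (1.85 to 2.11) and 2.07 (1.93 to 2.21) lay on either side of the fold criterion. It was called against mesoderm too with the median of ratios, TMM or RPKM total scaling, and lost its call against epiblast with the upper quartile scaling. *Psap* (chr10:60277627-60302597, plus strand), the precursor of the saposins that present sphingolipids to hydrolases, was lower in endoderm. Endoderm had 51.2 RPKM, mesoderm 69.7 and epiblast 71.3, so that mesoderm was 1.36-fold (1.32 to 1.41) and epiblast 1.39-fold (1.35 to 1.44) above endoderm, short of the fold criterion. *Gm2a*, the activator of ganglioside breakdown, had 3.80, 1.46 and 1.69 RPKM and was under 5 RPKM in all layers. Reads covered 46.4%, 46.7% and 47.6% of its length, the lowest share of all members in each library.

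**Figure D3:**
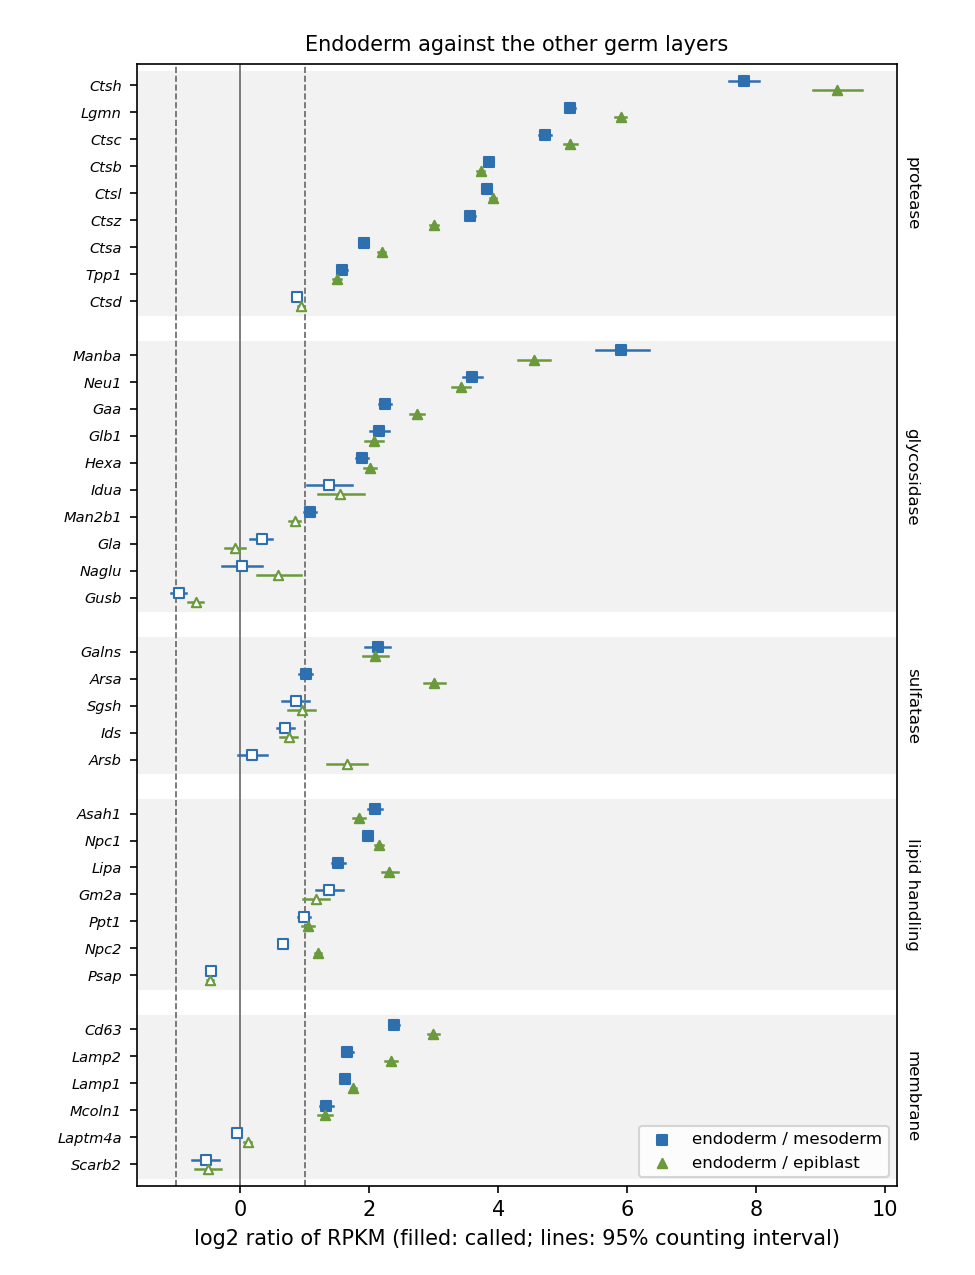
Log2 ratio of RPKM in endoderm to that in mesoderm (squares) and epiblast (triangles) for each member, grouped by class; filled symbols are called, lines are 95% counting intervals, and dashed lines mark a fold of 2 in either direction. *Ctsh* lies farthest to the right (7.81 and 9.26), 4 members lie left of 0 against mesoderm (*Gusb*, *Psap*, *Scarb2* and *Laptm4a*, the last of which moves to the right of 0 with the median of ratios or TMM scaling), and no filled symbol lies left of 0.

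Of the 6 membrane proteins, 4 were called higher in endoderm against each other layer. *Lamp1*, the most abundant member in mesoderm and epiblast, encodes a heavily glycosylated protein that lines the lysosomal membrane. It had 376.3, 122.7 and 111.5 RPKM and was 3.07-fold and 3.37-fold higher in endoderm. *Lamp2*, its relative with a role in autophagy, had 37.5, 11.8 and 7.44 RPKM (3.16-fold and 5.04-fold). *Cd63*, a tetraspanin of late endosomes and lysosomes, had the largest ratios of the class, with 244.1, 46.7 and 30.7 RPKM (5.23-fold and 7.96-fold). *Mcoln1*, a calcium release channel of the lysosome, had 29.1, 11.5 and 11.7 RPKM (2.52-fold and 2.48-fold).

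The remaining pair of membrane proteins did not follow. *Laptm4a*, a small transmembrane protein of late endosomes and lysosomes, had 72.5, 75.6 and 67.2 RPKM, with ratios of 0.959 (0.926 to 0.992) and 1.08 (1.04 to 1.12) that changed side under other scalings. *Scarb2*, which carries glucocerebrosidase to the lysosome, was lower in endoderm (3.82 RPKM) than in mesoderm (5.57) and epiblast (5.42). These levels were 1.46-fold (1.26 to 1.68) and 1.42-fold (1.23 to 1.63) that of endoderm. Both *Scarb2* ratios were short of the fold criterion.

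Mesoderm and epiblast were close to each other for most members, as they were for most genes. Of the 37 members, 29 were within 1.5-fold, beside 81.2% of all genes above 5 RPKM. Of the 26 members above 5 RPKM in either library, 1 was called higher in mesoderm (*Arsa*) and 0 higher in epiblast, where 5.30% and 5.02% of all such genes were called. The median ratio over the 37 members was 1.07, or 0.09 on the log2 scale, and 0.02 over all genes. Among members that were not called, *Lgmn* (ratio 1.72, interval 1.59 to 1.85), *Lipa* (1.73, 1.57 to 1.92), *Lamp2* (1.59, 1.48 to 1.72) and *Cd63* (1.52, 1.42 to 1.64) were higher in mesoderm beyond counting error. *Ctsz* was lower in mesoderm, at 0.680 of its epiblast level (0.641 to 0.721). At levels under 5 RPKM, *Ctsh* was 2.73-fold (2.01 to 3.75) higher in mesoderm and *Manba* 2.58-fold (1.86 to 3.61) higher in epiblast.

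The exons of 14 members overlap those of another gene in the GENCODE M21 annotation, among them *Ctsa* (with *Pltp* and *Neurl2*), *Ctsl* (with a pseudogene and an antisense RNA), *Ctsb* (*Fdft1*), *Ctsz* (*Nelfcd*), *Arsa* (an antisense RNA) and *Npc1* (*Rmc1*). Whether reads were counted by strand is not given in the sources used here, so their values are uncertain. Of the members called higher in endoderm, 14 of 23 against mesoderm and 14 of 24 against epiblast had no such overlap, among them *Ctsh*, *Lgmn*, *Ctsc*, *Manba*, *Neu1* and *Cd63*.

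Members with and without the promoter element described above had similar shares of calls, but the difference between these groups was not tested. With TCACGTG, 7 of 11 members were called higher in endoderm than in mesoderm, and without it 11 of 21. The median log2 ratio was 1.33 with and 1.38 without the element. Against epiblast, 7 of 11 and 12 of 21 were called, with medians of 1.75 and 1.55. *Lgmn*, with a ratio of 34.7 to mesoderm, and *Naglu*, with a ratio of 1.02, both carried it, whereas *Ctsc* and *Cd63* did not. No RefSeq window was matched for *Ctsh*, *Ctsb*, *Asah1*, *Galns* and *Npc1*. All of these were called higher in endoderm in both comparisons and are absent from the split.

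Lists of further genes of the pathway showed which other parts of the lysosome were higher in endoderm. Of 30 other lysosomal hydrolases, 22 were above 5 RPKM, of which 16 were called higher in endoderm than in mesoderm, 17 higher than in epiblast and 0 lower. Only 12 were above 5 RPKM in mesoderm or epiblast, and the others passed the minimum through endoderm alone. *Scpep1*, a serine carboxypeptidase, had 147.2, 21.0 and 18.4 RPKM, *Dpp7*, a dipeptidyl peptidase, 25.9, 3.27 and 4.52 RPKM, and *Man2b2*, an α-mannosidase, 36.1, 6.15 and 5.70 RPKM. Cathepsins K and S (*Ctsk* and *Ctss*), which are typical of osteoclasts and of antigen-presenting cells, were listed in no library.

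Of 20 other lysosomal membrane proteins, 14 were above 5 RPKM, of which 8 were called higher in endoderm than in mesoderm and 10 higher than in epiblast. Only 7 were above 5 RPKM in mesoderm or epiblast, and the others passed the minimum through endoderm alone. Among the called genes these were *Ctns*, *Slc17a5*, *Ostm1*, *Mcoln2*, *Slc36a1* and *Slc38a9*. *Tpcn1*, a cation channel of endosomes and lysosomes, had 85.9 RPKM in endoderm and 16.0 in mesoderm, and epiblast was 8.57-fold below endoderm. The transporters *Slc38a9*, a lysosomal amino acid sensor (7.86, 1.40 and 1.70 RPKM), *Ctns*, which exports cystine (16.5, 4.75 and 4.28 RPKM), and *Slc17a5*, which exports sialic acid (5.20, 1.67 and 1.39 RPKM), were also called in both comparisons. *Mcoln2*, a relative of *Mcoln1*, had 5.57 RPKM in endoderm from 584 reads, 0 reads in mesoderm and 4 in epiblast. A count of 0 allows up to 3 reads, so the endoderm level of *Mcoln2* was at least 190.9-fold that of mesoderm. *Laptm4b*, the relative of *Laptm4a*, had 130.6, 137.2 and 38.8 RPKM and was called lower in epiblast than in both other layers. *Mcoln2* and *Laptm4b* were named after their values were seen.

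Most V-ATPase genes above 5 RPKM were called in the same direction. Of 21 V-ATPase genes, 15 were above 5 RPKM, of which 10 were called higher in endoderm than in mesoderm and 8 higher than in epiblast. The subunits *Atp6v0a1* (62.4, 11.2 and 10.4 RPKM) and *Atp6v0b* (128.3, 24.3 and 31.1 RPKM) belong to the membrane sector that conducts protons. *Atp6v1a*, a catalytic subunit of the cytosolic sector, had 76.4, 18.0 and 19.2 RPKM, and the accessory protein *Atp6ap2* had 44.3, 13.9 and 12.2 RPKM. *Atp6v1f*, named after its values were seen, was the only V-ATPase gene called between mesoderm and epiblast, with 68.5 and 143.7 RPKM and 128.8 in endoderm.

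Of 13 genes of lysosomal enzyme sorting, all above 5 RPKM, 5 were called higher in endoderm in each comparison and 1, *Sort1*, was called higher in epiblast than in endoderm (9.14, 16.2 and 18.4 RPKM). *Sorl1*, a sorting receptor, had 11.7, 1.23 and 3.12 RPKM. The large mannose 6-phosphate receptor *Igf2r*, an imprinted gene, had 50.5, 25.1 and 14.1 RPKM. *Gnptab*, which starts the mannose 6-phosphate tag, had 24.1, 9.62 and 9.26 RPKM, and *Nagpa*, which uncovers it, 20.9, 10.2 and 8.10 RPKM. In this list 6 of 10 genes with a RefSeq window carried TCACGTG, the highest share of the further lists. It was found near 1 of 22 other hydrolases (4.55%, beside 4.29% of all genes) and 3 of 17 other membrane genes. The counts were 4 of 15 for V-ATPase genes, 5 of 15 for regulators, 1 of 11 for autophagy and 2 of 9 for late endosome fusion. In the plot of called shares, the sorting genes lie between the hydrolases and the regulators.

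**Figure D4:**
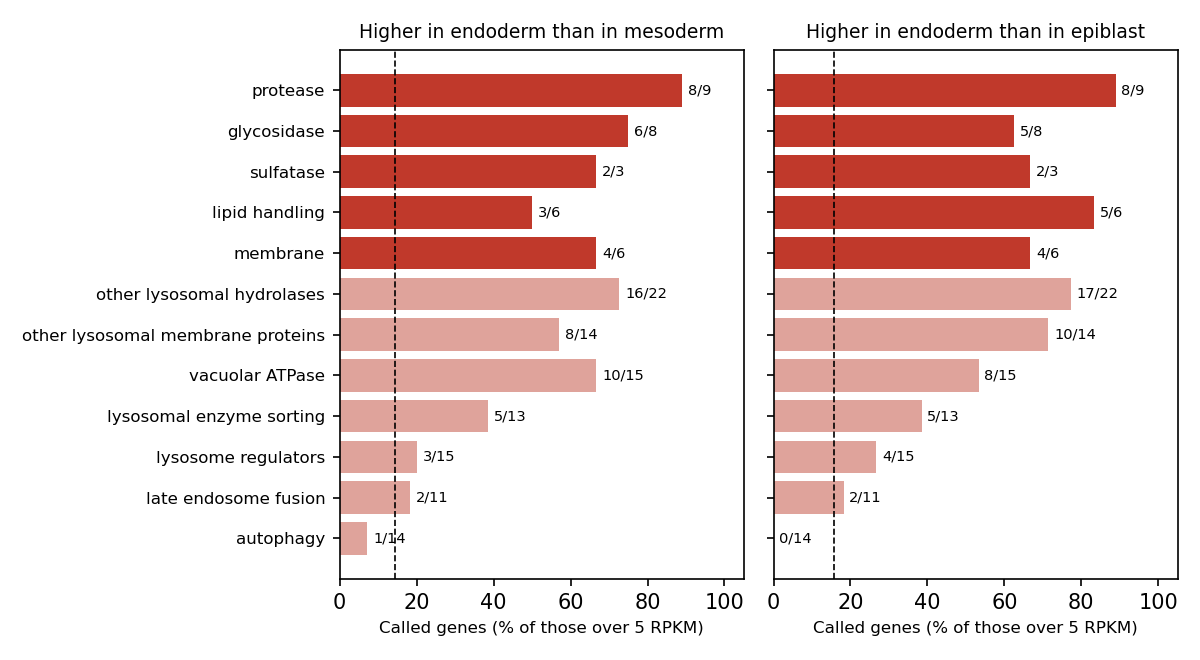
Percent of genes called higher in endoderm than in mesoderm (left) and epiblast (right) among the genes of each list above 5 RPKM, with called and tested genes written at each bar; dark bars are the classes of the 37 members, light bars are further lists, and the dashed lines mark all genes (14.4% and 15.7%). Proteases reach 8 of 9 in both panels, and autophagy genes lie below the dashed line with 1 of 14 and 0 of 14.

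Lysosome regulators did not move as a group. Of 16, 15 were above 5 RPKM in either library. Of these, 3 were called higher and 2 lower in endoderm than in mesoderm, and 4 were called higher and 2 lower than in epiblast. Of all genes above 5 RPKM in either library, 14.4% were called higher and 8.56% lower in endoderm than in mesoderm. The shares in the comparison with epiblast were 15.7% and 8.94%. Whether the 15 regulators differ from these shares was not tested. Among the MiT/TFE factors, *Tfeb* had 21.4, 0.478 and 0.477 RPKM, from 2104, 46 and 48 reads, and was 44.9-fold higher in endoderm than in either layer (intervals 33.5 to 61.5 and 33.8 to 61.1). *Tfec*, its relative, had 11.5 RPKM in endoderm from 854 reads and 0 reads in mesoderm and epiblast, so that endoderm was higher by at least 279.2-fold and 291.9-fold. *Tfe3* was present in all layers with 26.4, 16.2 and 42.1 RPKM and was called higher in epiblast than in mesoderm. *Mitf* had 0.452 RPKM or less in every layer. *Tfec*, *Tfe3* and *Mitf* were named after their values were seen.

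The Rag GTPases recruit the kinase mTORC1 to lysosomes as pairs of *Rraga* or *Rragb* with *Rragc* or *Rragd*. *Rragc* was higher in endoderm, with 33.6, 12.0 and 9.25 RPKM. *Rragd* was lower in endoderm, with 4.15, 16.3 and 30.6 RPKM, and *Rragb* likewise, with 3.06, 8.25 and 23.0 RPKM. The ratio of epiblast to endoderm was 7.37 (6.87 to 7.92) for *Rragd* and 7.52 (6.66 to 8.52) for *Rragb*. The plot of the regulators shows these genes with endoderm and epiblast at opposite ends.

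**Figure D5:**
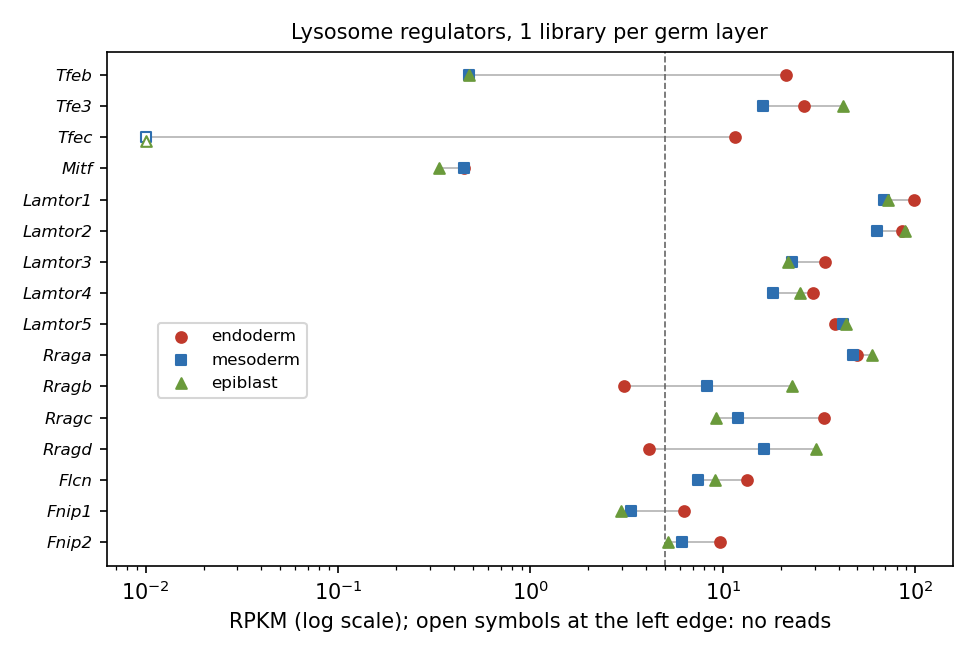
RPKM of 16 lysosome regulators in the endoderm, mesoderm and epiblast libraries (log axis, dashed line at 5 RPKM), 1 library per symbol; open symbols at the left edge had no reads. *Tfeb* and *Tfec* lie above 5 RPKM in endoderm only, whereas *Rragb* and *Rragd* are lowest in endoderm (3.06 and 4.15 RPKM).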

How the data were processed

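RNA-seq of 3 samples was used, 1 library each of endoderm, mesoderm and epiblast at E7.5. The authors sequenced paired-end libraries, removed adapters and low-quality reads, and deposited for each gene the count of uniquely mapped reads, the RPKM, its length in bases, and coverage, which is the percent of the length under reads. The deposited RPKM equals the count divided by length and by the total of counted reads, with a largest relative difference of 2.03e-07. TopHat, mm9 and mm10 stand in the submitters' processing notes without a role. The paper states that TopHat mapped the reads to mm10 for its splicing analysis. The aligner and annotation of the gene table are not given in the sources used here. Totals were 41.7 M, 40.8 M and 42.7 M reads. Genes not listed were set to 0 reads, a count that allows up to 3. Intervals and limits cover counting error only.

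The members and the lists of further genes were chosen with earlier results of these data known. Of 223 genes in all lists, 205 were found in the tables, 5 by an older symbol. Calls used RPKM>5 in at least 1 library, Fold Change>2 and FDR<0.001 by the exact test (two-sided) of Audic and Claverie with Benjamini-Hochberg adjustment over all genes with a read in either library. Fold intervals are exact Clopper-Pearson 95% intervals of the count ratio. A fold against 0 reads was computed against 3 reads. The quasi-likelihood test of edgeR could not be fitted to 1 library per layer. Alternatives were RPKM minima of 1, 10 and none, folds of 1.5 and 4, pseudocounts of 0.1 and 1, scaling by the median of ratios (DESeq2 size factors), TMM, upper quartile and RPKM total, and the exact test of edgeR (FDR under 0.05), where a biological coefficient of variation of 0.2 or 0.4 was assumed. All members were named, and from each further list up to 4 called genes with over 3 reads in each library and the largest ratio of highest to lowest layer; others are marked where named. A result that this rule would name is not reported here. Positions are from GENCODE M21 (GRCm38) and promoters from RefSeq (GRCm38.p6). The calls were tested on simulated data. Software was R 4.3.3 with edgeR 4.0.16 and DESeq2 1.42.0, and Python 3.11.15 with SciPy 1.17.1, numpy 2.4.6, pandas 2.3.3 and matplotlib 3.10.9.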

Additional observations from a re-analysis of the deposited data

How the results depend on the processing

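No paired analysis was possible because each germ layer had 1 library, and none could be left out. Against mesoderm, the 23 members called higher in endoderm became 13 with a fold above 4 and 8 with a coefficient of biological variation assumed to be 0.4. Against epiblast, the 24 became 11 with the coefficient of 0.4. The 0 members called lower in endoderm became 1 (*Gusb*) against mesoderm with a fold above 1.5 and 1 with the upper quartile scaling, and 1 (*Gusb*) against epiblast with a fold above 1.5. Between mesoderm and epiblast, the 1 member called higher in mesoderm (*Arsa*) became 3 with an RPKM above 1 and 3 with no RPKM minimum (with *Ctsh* and *Arsb*), 5 with a fold above 1.5, and 0 with an RPKM above 10, a fold above 4 or the coefficient of 0.4. The 0 members called higher in epiblast became 1 (*Manba*) with no RPKM minimum. The median log2 ratio of 1.58 against mesoderm became 1.70 with the median of ratios and 1.69 with TMM factors. That of 1.84 against epiblast became 1.95, 1.95 and, with the upper quartile, 1.70. The other counts stayed within 1.5 times and the other medians within 0.1. For the members called in a pair, over all alternatives, 478 results kept direction and call, 50 lost the call and 0 reversed. Among members not called, other scalings turned the direction of *Laptm4a* and *Naglu* against mesoderm, of *Gla* and *Laptm4a* against epiblast, and of *Ids*, *Ppt1*, *Scarb2*, *Galns*, *Psap* and *Mcoln1* between mesoderm and epiblast. Other settings added calls, such as *Ids* and *Npc2* against mesoderm with a fold above 1.5 and *Idua* and *Gm2a* against both layers without an RPKM minimum. With 1 library per layer, the spread between embryos is unknown, and the coefficients were assumed.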

Other observations

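Genes of autophagy and of late endosome fusion act in the delivery of cargo to lysosomes. Of 14 autophagy genes, all above 5 RPKM in endoderm, 1 was called higher in endoderm than in mesoderm (*Gabarapl1*, with 37.8, 13.6 and 23.9 RPKM in endoderm, mesoderm and epiblast) and 0 higher than in epiblast. The median fold of the 14 was 1.12 against mesoderm and 1.13 against epiblast. Of 12 genes of late endosome fusion, 11 were tested and 2 were called higher in endoderm against each layer (18.2%, beside 14.4% and 15.7% of all genes). The median fold of the 12 was 1.41 and 1.38, and 11 of them had the higher value in endoderm in each comparison. The called genes were the SNARE genes *Vamp8* (106.8, 6.85 and 22.4 RPKM) and *Stx7* (94.7, 7.69 and 7.02 RPKM), and *Vamp8* was also called higher in epiblast than in mesoderm. The small GTPase *Rab7*, named after its values were seen, had 190.5 RPKM in endoderm and 114.0 in mesoderm and was not called.

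Inhibitors of cysteine proteases were present beside the cathepsins. *Cst3* (cystatin C) had 224.8, 121.1 and 60.7 RPKM and was called higher in endoderm than in epiblast, and *Cstb* (cystatin B) had 107.4, 41.9 and 32.3 RPKM and was called higher in endoderm than in both layers. Of the 8 cathepsins that are known from placenta (*Cts3*, *Cts6*, *Cts7*, *Cts8*, *Ctsj*, *Ctsm*, *Ctsq* and *Ctsr*), only *Cts8* was listed, with 2 reads in mesoderm.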
